A study of Mus musculus with 6 samples.

Results

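Small leucine-rich proteoglycans and the glycoproteins of the interstitial matrix were followed in mouse brown adipose tissue, the heat-producing fat depot. The 10 genes were Prelp, Bgn, Dcn, Lum, Fmod and Ogn, which encode small leucine-rich proteoglycans, and Tnc, Fn1, Fbn1 and Sparc, which encode matrix glycoproteins. Every probe set, the group of short probes that reads a transcript, was taken whose platform symbol was a member's. This gave 20 probe sets for 9 genes, out of 22626 probe sets and 12393 genes in all, and the expression of Fbn1, which encodes fibrillin 1, was not analysed here.

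The control group held 3 arrays of Yy1 flox/flox mice without a Cre transgene named in the labels. The YY1bKO group held 3 arrays of Yy1 flox/flox mice that also carried Ucp1Cre. All mice had a mixed C57BL6 and 129 background, were 3.5 months old and were given a high fat diet for 3 months, so no lean comparison exists. Ucp1Cre places the recombinase under the promoter of a gene specific to brown adipocytes. The comparison asks what changes in the tissue when these cells lose the transcription factor Yin Yang 1. Of 4 Yy1 probe sets 3 were lower in YY1bKO tissue, the brightest with -1.43 ± 0.11 as its log2 difference (SE, adjusted p = 0.000887 in the limma fit over all probe sets). The fourth, dim on all arrays, gave -0.06 (adjusted p = 0.766), and its groups overlapped. Brown adipocyte markers were bright on every array, and Ucp1 averaged 13.92 and 13.78 (log2 intensity) in the control and YY1bKO groups.

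Small leucine-rich proteoglycans are secreted proteins whose curved repeat domain binds collagen, and most carry glycosaminoglycan chains. They set the spacing and width of collagen fibrils and hold growth factors such as TGF-beta in the matrix. Fibronectin, tenascin C, fibrillin 1 and SPARC tie that matrix to cells or tune how cells attach to it. In fat these proteins are made to a large part by stromal cells, and adipocytes sit inside the mesh they form.

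Prelp, Tnc and Bgn fell in YY1bKO tissue, by 1.53, 1.15 and 0.78 on the log2 scale, and no member rose. These 3 of 9 measured members were called lower at a limma p adjusted over all genes under 0.05, where 8.09% of all genes were called lower and 10.2% higher. The members' median log2 fold change was -0.51, and that of all genes was 0.04. The members' median is the value of Fn1, and it moved to -0.12 when control replicate 2 was dropped and to -0.93 when control replicate 3 was, while that of all genes stayed between 0.03 and 0.05 whichever array was left out. Sparc, Fn1 and Fmod had negative estimates that did not pass the test, while Dcn, Lum and Ogn had estimates between -0.04 and 0.26 that did not pass it either. In 4 members, Prelp, Tnc, Bgn and Sparc, the 3 YY1bKO values lay below the 3 control values, which held for 15.7% of all genes. The tissue is a mixture, so fewer cells of a type and less RNA per cell cannot be told apart. Intensities below are linear, as deposited, and fold changes are on the log2 scale.

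**Figure D1:**
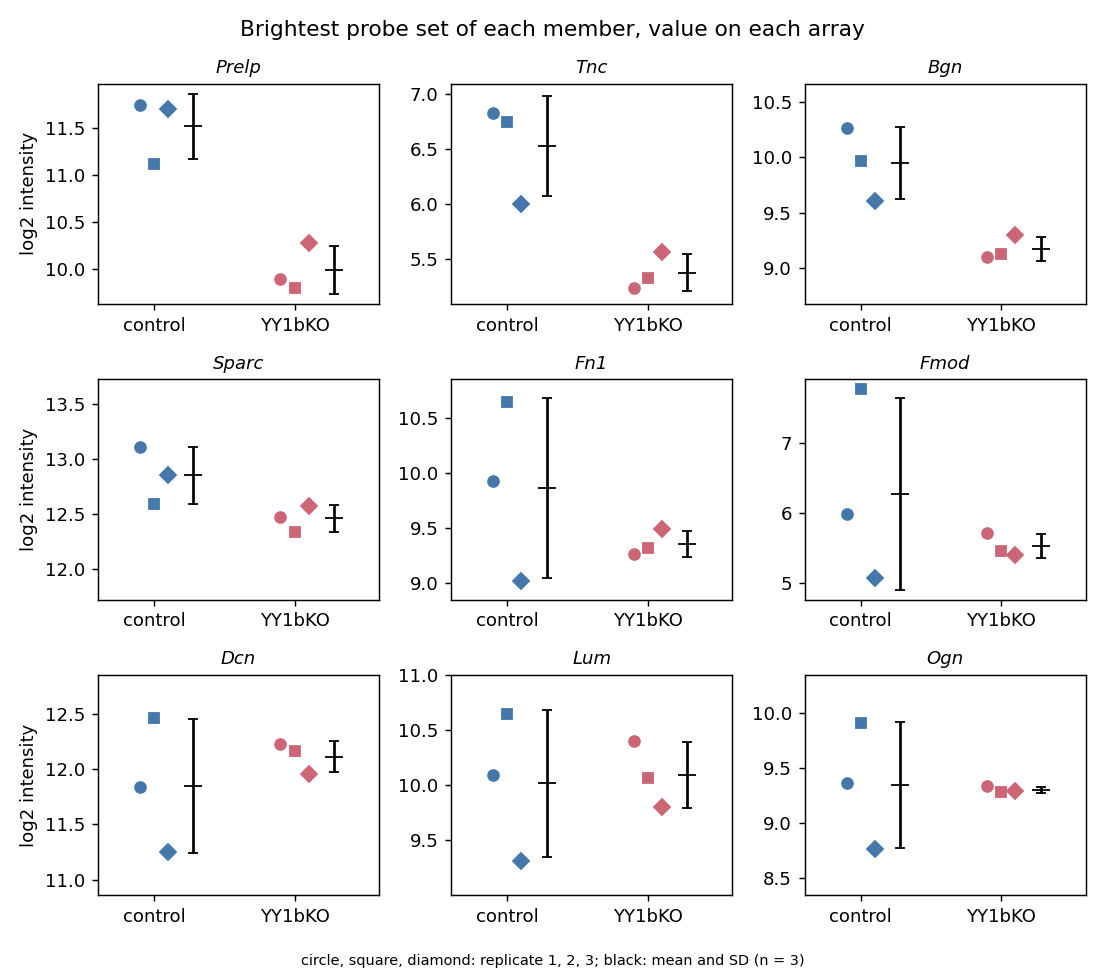
The log2 intensity of the brightest probe set of each of 9 members is plotted for control (blue) and YY1bKO (red) arrays, with circles, squares and diamonds for replicates 1, 2 and 3 and the black mark for the mean and SD (n = 3). The groups are apart for Prelp, Tnc, Bgn and Sparc, and for Fn1, Fmod, Dcn, Lum and Ogn the YY1bKO values lie inside the range of the control arrays.

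Control replicate 2 stood apart from the other arrays. The first principal component, with 48.6% of the variance between arrays, parted the groups, and the second, with 36.0%, parted this array from the other 5. The summed intensity of 14 skeletal muscle genes was 182532 in control replicate 2 against 36620.3 and 29718 in the other control arrays and 66567 to 88611 in YY1bKO arrays. None of the 14 was called by limma, and 0 had an unadjusted p under 0.05, against 3960 of all 12393 genes. The median log2 fold change of the 14 was 0.42. It was 1.31 without control replicate 2, with 0 negative estimates, and -0.10 without control replicate 3, with 10 negative. Calls and directions of the members that changed without control replicate 2 are given with each member below.

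Prelp encodes prolargin, which anchors basement membranes to the collagen of connective tissue. The brightest Prelp probe set, 1416321_s_at, read 3426, 2229.8 and 3327 on control replicates 1, 2 and 3. It read 947, 891 and 1244 on YY1bKO replicates 1, 2 and 3. All YY1bKO values lay far below the lowest control value, which was that of replicate 2. The log2 means were 11.52 ± 0.35 and 9.99 ± 0.26 (SD, n = 3). They differed by -1.53 ± 0.20 (SE), a 2.89-fold fall (limma adjusted p = 0.00500). Ordered from the most negative, it held place 52 among the 12393 fold changes. The other Prelp probe set, 1416322_at, read 394, 238 and 390.1 in control and 165, 133 and 172 in YY1bKO tissue. Its log2 fold change was -1.09 ± 0.21 (SE), and it too fell by the test over all probe sets (adjusted p = 0.0178). Both probe sets placed every YY1bKO array below every control array. The call was present under all 15 alternative settings, with log2 fold changes from -1.73 to -1.31 and adjusted p from 0.000913 to 0.0280.

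Tnc encodes tenascin C, a large glycoprotein laid down in growing or injured tissue that loosens the hold of cells on fibronectin. Its single probe set read 113, 107 and 64.0 in control and 37.7, 40.1 and 47.3 in YY1bKO tissue. Control replicate 3 was the lowest control array and still lay above all YY1bKO arrays. Tnc fell 2.22-fold, with a log2 fold change of -1.15 ± 0.23 (SE, limma adjusted p = 0.0171). This probe set was dim, its mean being under 6.48, the median log2 intensity of the array's probe sets, in a range where RMA pulls fold changes in. Leaving out control replicate 1 ended the call (-0.998, adjusted p = 0.0572), as did leaving out YY1bKO replicate 1 (-1.08, 0.0693) or 2 (-1.12, 0.0688).

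Bgn encodes biglycan, a proteoglycan with chondroitin or dermatan sulphate chains that binds collagen and can activate innate immune receptors when set free. The brightest of its 3 probe sets, 1416405_at, read 1229.9, 1005 and 781 in control and 548, 558 and 629 in YY1bKO tissue. The groups did not overlap, and the control arrays were the more spread. The log2 means were 9.95 ± 0.33 and 9.17 ± 0.11 (SD, n = 3), and Bgn fell 1.71-fold, a log2 difference of -0.78 ± 0.17 (SE, limma adjusted p = 0.0231). The other probe sets, 1448323_a_at and 1437889_x_at, gave -0.61 (adjusted p = 0.0563 over all probe sets) and -0.48 (0.0748) and did not pass the test, although their groups did not overlap either. Leaving out control replicate 1 ended the Bgn call (adjusted p = 0.0511), as did leaving out YY1bKO replicate 1 (0.0865), 2 (0.0870) or 3 (0.0618), at log2 fold changes from -0.84 to -0.62. Over all probe sets, 7.16% were called lower and 8.83% higher, and of the members' 20 probe sets 4 were called lower and 0 higher.

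**Figure D2:**
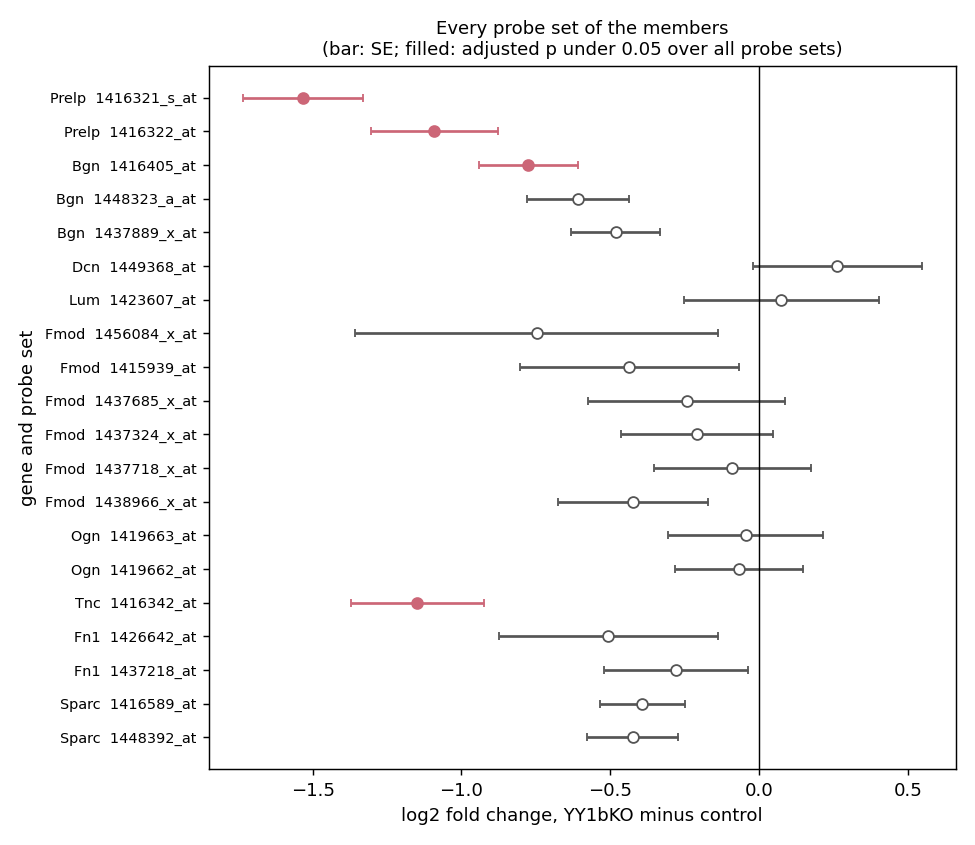
The log2 fold change, YY1bKO minus control, of all 20 probe sets of the members is shown with its SE, and filled red points mark an adjusted p under 0.05 over 22626 probe sets. The 4 filled points are both Prelp probe sets, 1 of the 3 Bgn probe sets and the Tnc probe set, and all lie left of 0.

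The promoters of the 3 genes that fell are shown because the deleted factor binds DNA and its recognition core is known. Each run gives the 250 bases before an annotated start, 5′ to 3′, from RefSeq on GRCm38.p6. Capitals mark the TATA box string TATAAA, the GC box string GGGCGG and the pyrimidine string CCTCCC, each on either strand.
Prelp, chr1:133921402-133921651, minus strand: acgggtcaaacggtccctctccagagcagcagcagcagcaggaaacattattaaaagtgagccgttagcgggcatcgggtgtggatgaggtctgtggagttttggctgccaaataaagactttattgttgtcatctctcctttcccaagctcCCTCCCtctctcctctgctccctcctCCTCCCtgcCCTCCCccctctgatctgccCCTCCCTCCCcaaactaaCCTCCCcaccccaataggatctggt
Tnc, chr4:64047016-64047265, minus strand: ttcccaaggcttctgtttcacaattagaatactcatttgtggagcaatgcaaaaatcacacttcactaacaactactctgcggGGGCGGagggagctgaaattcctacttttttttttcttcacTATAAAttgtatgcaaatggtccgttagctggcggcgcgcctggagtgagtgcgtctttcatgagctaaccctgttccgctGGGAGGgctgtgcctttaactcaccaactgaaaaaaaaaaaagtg
Bgn, chrX:73483351-73483600, plus strand: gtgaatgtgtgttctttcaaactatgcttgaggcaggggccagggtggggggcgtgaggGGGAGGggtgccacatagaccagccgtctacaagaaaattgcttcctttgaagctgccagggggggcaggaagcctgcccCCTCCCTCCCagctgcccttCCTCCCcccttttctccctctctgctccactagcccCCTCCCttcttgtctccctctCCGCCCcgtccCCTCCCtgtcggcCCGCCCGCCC

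Windows of 300 bases, from 250 before to 50 after a start, were matched for 7 of the 10 members in 8 windows, and Dcn, Lum and Fn1 were not matched. The Yin Yang 1 core CCATNTT, searched on both strands, stood in 0 of the 8 windows and in 16.1% of 32851 windows of all genes. The related ATGGCGG, which can overlap it on the opposite strand, stood in 0 of the 8 and in 4.05% of all windows. Absence of these letters here says nothing about binding elsewhere. TATAAA was found for Tnc and Ogn, and in 13.6% of all windows. GGGCGG was found for Fbn1, Tnc and Bgn, and in 35.7% of all. The string CCTCCC was looked for after the Prelp and Bgn promoters had been read. It occurred 6 times in each of the Prelp and Bgn runs above, overlapping matches counted separately. How often so many matches occur in other windows was not counted. At least 1 match stood in 6 of the 8 member windows and in 42.4% of all windows. The Fbn1 window held it 5 times as well, and the Fmod window and each Tnc window held 1 match. The Sparc and Ogn windows did not hold it.

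Dcn encodes decorin, the closest relative of biglycan, which coats collagen fibrils and binds TGF-beta. Its probe set read 3663, 5664 and 2436 in control and 4798, 4586 and 3972 in YY1bKO tissue. Control replicate 2 was the highest and control replicate 3 the lowest of all 6 arrays. The log2 fold change was 0.26 ± 0.29 (SE, limma adjusted p = 0.583), with a 95% interval from -0.42 to 0.95. Dropping control replicate 2 gave 0.57 (adjusted p = 0.0619), and dropping control replicate 3 gave -0.04.

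Lum encodes lumican, a keratan sulphate proteoglycan that governs fibril width in cornea and skin. It read 1091, 1601 and 637 in control and 1351, 1074 and 895 in YY1bKO tissue, so the groups overlapped. The log2 fold change was 0.07 ± 0.33 (SE, limma adjusted p = 0.907), with a 95% interval from -0.72 to 0.87. Its sign turned without control replicate 3 (-0.28) or YY1bKO replicate 1 (-0.08). Ogn encodes osteoglycin, also called mimecan, a family member named after its effect on bone. Its brighter probe set read 661, 964 and 437 in control and 647, 623 and 629 in YY1bKO tissue, where the 3 arrays nearly coincided. The log2 fold change was -0.04 ± 0.26 (SE, limma adjusted p = 0.931), and 0.24 without control replicate 2.

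Fmod encodes fibromodulin, a collagen-binding proteoglycan abundant in tendon and cartilage. All 6 Fmod probe sets were dim in the same sense, and 5 of them carry the suffix x, which marks probes that may also bind other transcripts. The brightest, 1456084_x_at, read 63.6, 217 and 33.6 in control and 52.8, 44.0 and 42.4 in YY1bKO tissue. Control replicate 2 was thus 6.46-fold above control replicate 3. The probe set without the suffix, 1415939_at, read 43.4, 91.0 and 30.1 in control and 37.2, 38.6 and 33.5 in YY1bKO tissue, with the same array on top. Log2 fold changes ran from -0.75 to -0.09 over the 6 probe sets, and none passed the test (adjusted p from 0.314 to 0.861 over all probe sets). For the brightest, at -0.75, the 95% interval was from -2.22 to 0.73. Without control replicate 2 its log2 fold change was -0.0028 (adjusted p = 0.995), and without control replicate 3 it was -1.35 (adjusted p = 0.127).

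Fn1 encodes fibronectin, the glycoprotein through which integrins grip the matrix. The brighter Fn1 probe set read 971, 1602 and 519 in control and 615, 638 and 719 in YY1bKO tissue. The YY1bKO arrays were close together and lay between control replicates 3 and 1. Its log2 fold change was -0.51 ± 0.37 (SE, limma adjusted p = 0.403), with a 95% interval from -1.40 to 0.38. Without control replicate 3 it was called lower (-0.93, adjusted p = 0.0459), and without control replicate 2 the estimate was -0.12 (adjusted p = 0.774).

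Sparc encodes a collagen-binding glycoprotein, also called osteonectin, that favours matrix over cell attachment and is linked to restraint of adipocyte formation. Its brighter probe set read 8827, 6177 and 7383 in control and 5668, 5159.8 and 6092 in YY1bKO tissue. The lowest control value, that of replicate 2, lay just above the highest YY1bKO value. The log2 fold change was -0.39 ± 0.14 (SE), with an unadjusted p of 0.0302 and a limma adjusted p of 0.112, so it did not pass the test. Without control replicate 2 it passed, with a log2 fold change of -0.52 (adjusted p = 0.0201). The second Sparc probe set gave -0.42 (adjusted p = 0.114 over all probe sets), and its groups overlapped.

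Pairs of relatives were also compared within arrays. The change in the log2 difference between Prelp and Lum was -1.61, and that between Bgn and Dcn was -1.04, each from control to YY1bKO tissue. In both the 3 YY1bKO differences lay below the 3 control differences (exact two-sided permutation test, p = 0.1, which is the lowest value possible with 3 arrays a group, and 0.15 adjusted over 3 pairs). For Prelp and Fmod the change was -0.79 and the groups overlapped (exact permutation p = 0.5). The 3 pairs were chosen after the values had been seen, so these differences are a description.

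Genes of this family lie in clusters. Prelp lies on chromosome 1 between Optc, which encodes opticin, and Fmod. Of these 3 neighbours Prelp alone passed the test, with Optc at 0.07 (adjusted p = 0.730) and Fmod as given above. Optc and Fmod were dim, where RMA pulls fold changes in, so a change in them could go unseen. Dcn and Lum are followed on chromosome 10 by Kera, which encodes keratocan, and Epyc, which encodes epiphycan. Kera gave -0.35 (adjusted p = 0.402) and Epyc 0.04 (adjusted p = 0.772), both dim. Next to Ogn on chromosome 13 lie Omd, which encodes osteomodulin, and Aspn, which encodes asporin. Omd, dim as well, gave -0.11 (adjusted p = 0.730). Aspn gave -0.52 ± 0.19 (SE, adjusted p = 0.118), and -0.73 (adjusted p = 0.0228) without control replicate 3. Of the differences between neighbours, that of Prelp and Fmod alone was compared, above, and its groups overlapped.

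The 9 members fell into 2 groups by the control array on which they were highest. Dcn, Lum, Ogn, Fmod and Fn1 were highest on control replicate 2, intermediate on control replicate 1 and lowest of the control arrays on control replicate 3. That order held for 5 of 9 members and for 16.8% of all genes. Prelp, Tnc, Bgn and Sparc were highest on control replicate 1. Between control replicates 2 and 3 the brightest probe sets differed 2.33-fold for Dcn, 2.51-fold for Lum, 2.20-fold for Ogn, 3.08-fold for Fn1 and 6.46-fold for Fmod. For Prelp and Sparc control replicate 2 was the lower of that pair, at ratios of 0.670 and 0.837. For Tnc and Bgn it was the higher, at ratios of 1.68 and 1.29. Among 15 measured fibroblast markers 12 showed the control array order of Dcn, Lum, Ogn, Fmod and Fn1. So did 13 of 14 skeletal muscle genes and 7 of 9 tendon and cartilage genes. The part of any of these cell types in the member values was not tested.

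**Figure D3:**
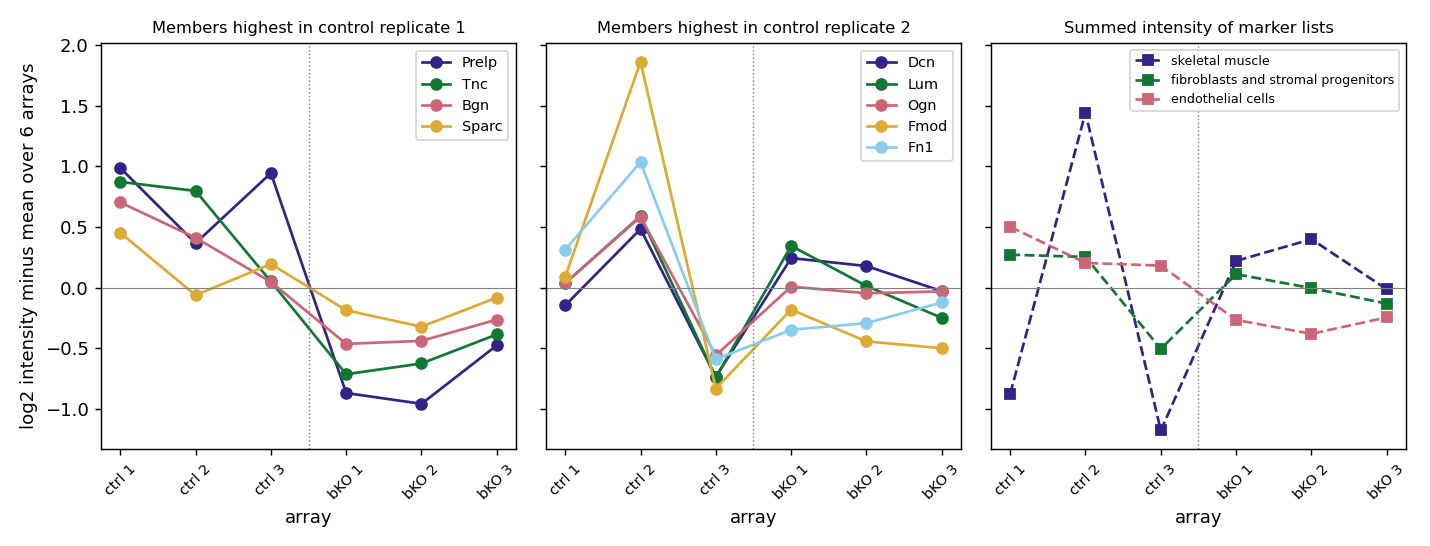
The log2 intensity of each member minus its mean over the 6 arrays is drawn by array for members highest on control replicate 1 (left) and on control replicate 2 (middle), and the log2 summed intensity of 3 marker lists likewise (right). The left lines drop between the control and YY1bKO arrays, and the middle lines peak at control replicate 2 and dip at control replicate 3.

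Markers of other cells were set beside the 3 called members. Among 15 fibroblast and stromal markers 1 was lower, Pdgfrb (-0.77, adjusted p = 0.0416), a call lost without any single array except control replicate 3. The summed intensity of that list was 8459.6 to 14488 in control and 10959 to 12963 in YY1bKO tissue, so the groups overlapped. Its median log2 fold change was -0.17, with 12 of 15 estimates negative. The median was 0.028 without control replicate 2, with 6 negative, and -0.385 without control replicate 3, with 14 negative. Endothelial markers had 4 of 9 lower, Cdh5, Kdr, Tek and Cldn5, with log2 fold changes of -0.53, -0.53, -0.65 and -1.19. Their summed intensity was 3968 to 4954 in control and 2688 to 2952 in YY1bKO tissue, with no overlap. Pericyte and smooth muscle markers had 3 of 9 lower, Rgs5 (-0.53), Notch3 (-0.53) and Kcnj8 (-0.56), and sums of 7999.7 to 11084.5 against 7113 to 7619. The muscle genes of that list, Cnn1 (0.49), Tagln (0.38), Myh11 (0.33), Acta2 (0.20) and Des (0.17), had positive estimates that did not pass the test. The list median was 0.17, the value of Des. Des read 1850 on control replicate 2, where the skeletal muscle genes were highest too, against 306 and 283 on the other control arrays. The Notch3 call was lost when a gene's probe sets were averaged (-0.39, adjusted p = 0.0529). Macrophage markers had 2 of 9 lower, Cd163 (-0.79) and Msr1 (-0.33), and a median of -0.05. Cd68 (0.25), Lyz2 (0.24) and Adgre1 (0.18) had positive estimates that did not pass the test, and averaging probe sets took Msr1 to -0.08 (adjusted p = 0.494). These lower calls came to 6.67% of the fibroblast, 44.4% of the endothelial, 33.3% of the pericyte and smooth muscle and 22.2% of the macrophage markers, against 8.09% of all genes. Of these 10 single-gene calls, that of Rgs5 was present whichever array was left out, and the others were lost without at least 1 array. Brown adipocyte markers had 3 of 10 higher, Elovl3, Ppargc1a and Zic1, or 30% against 10.2% of all genes. Their median was -0.09, and 6 of the 10 estimates were negative. Dio2 (-0.87) and Cox8b (-0.21) were among these 6 and did not pass the test. White adipocyte markers had 1 lower, Lep, and 1 higher, Psat1, of 8, or 12.5% each way. No tendon or cartilage, mesothelial, Schwann cell or lymphocyte marker was called by limma, of 9, 4, 5 and 7 measured. At an unadjusted p under 0.05 there were 0, 1, 1 and 1, against 3960 of all 12393 genes. The part of any of these cell types in the lower Prelp, Tnc and Bgn values was not tested.

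Collagens of fibrils, to which the small proteoglycans bind, held no lower call among 11 genes, where 8.09% of all genes were called lower. The list had 1 higher call, or 9.09% against 10.2% of all genes. With so few genes these counts set the list apart in neither direction. Col1a1 gave -0.06 ± 0.25 (SE, adjusted p = 0.897), Col1a2 0.27 ± 0.22 (0.455) and Col3a1 0.03 ± 0.25 (0.952), the main chains of type I and type III collagen. The signs of Col1a1 and Col3a1 turned under other settings. Col11a2, a chain of a cartilage collagen, was higher (0.95 ± 0.07, SE, limma adjusted p = 0.00110) from a dim mean of 4.27 to 5.23. Col5a1, Col5a2 and Col14a1 gave -0.45, -0.34 and -0.63 and did not pass the test (adjusted p = 0.224, 0.306 and 0.304). For each of them control replicate 3 was the lowest control array. Without it they were called lower, with -0.72, -0.58 and -1.07 (adjusted p = 0.0237, 0.0242 and 0.0208).

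Genes of the elastic fibre and its microfibrils, the structure that fibrillin 1 builds, had 4 lower and 0 higher calls among 14, or 28.6% against 8.09% of all genes, and a median of -0.28. Ltbp2, which encodes a protein that attaches to fibrillin, fell by 1.36 ± 0.14 (SE, limma adjusted p = 0.00267) and was called whichever array was left out. Fbln2, which encodes the fibrillin-binding protein fibulin 2, fell by 0.97 and Ltbp3, which tethers latent TGF-beta, by 0.63 (adjusted p = 0.0115 and 0.0177). Ltbp4, an elastic fibre organiser, fell by 0.30 at a dim intensity (adjusted p = 0.0413). Efemp1 (-0.61, adjusted p = 0.0518) and Fbln5 (-0.47, 0.0539) did not pass the test. Without control replicate 2 both were called lower (-0.43 and -0.52, adjusted p = 0.0331 and 0.0427), and without control replicate 3 Efemp1 (-0.73, 0.0422) and Mfap5 (-0.74, 0.0270) were. Only 2 genes of the list were called when control replicate 1 or YY1bKO replicate 3 was left out, and 1 when YY1bKO replicate 2 was. The Fbln2 call was lost in the last of these fits, the Ltbp3 call in all 3, and the Ltbp4 call in every fit without an array except that without control replicate 3.

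Other matricellular proteins and tenascins, the group of Tnc and Sparc, had no call among 17 genes by limma. At an unadjusted p under 0.05 there were 6 of 17, against 3960 of all 12393 genes. That count alone does not set the list apart. All 6 had negative estimates, and the median of the list was -0.43, or -0.23 without control replicate 2. Thbs1, which encodes thrombospondin 1, gave -1.46 ± 0.45 (SE, adjusted p = 0.0699), and Smoc2 gave -0.83 ± 0.25 (0.0686). Ccn2 gave -1.07 (adjusted p = 0.172), Tnxb -0.50 (0.151), Postn -0.43 (0.142) and Sparcl1 -0.45 (0.0947), none of which passed the test. Without control replicate 2 Thbs1, Smoc2 and Ccn2 were called lower, with -1.95, -0.54 and -1.44. Without control replicate 3 Tnxb (-0.74) and Postn (-0.60) were, and without YY1bKO replicate 3 Sparcl1 (-0.59). Of 22 other proteoglycans 1 was lower, Cspg4 (-0.95 ± 0.14, SE, adjusted p = 0.00687), which encodes the NG2 proteoglycan of pericytes. This was 4.55% of the list against 8.09% of all genes. An unadjusted p under 0.05 was reached by 4, Cspg4 and Prg4 with negative estimates and Agrn (0.25) and Hspg2 (0.24) with positive ones. Prg4, which encodes lubricin, gave -1.23 (adjusted p = 0.113) and read 167, 328 and 83.2 on control replicates 1, 2 and 3. Without control replicate 3 Prg4 was also called lower (-1.73, adjusted p = 0.0209). The 6 measured further small leucine-rich proteoglycans had no call by limma, and Aspn was the 1 with an unadjusted p under 0.05.

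Enzymes that build glycosaminoglycan chains on these proteins had 3 lower and 2 higher calls among 22 genes, with a median of 0.03. These shares, 13.6% and 9.09%, lie near the 8.09% and 10.2% of all genes, so the counts set the list apart in neither direction. Chst15, a sulphotransferase that makes doubly sulphated chondroitin units, fell by 1.17 ± 0.14 (SE, limma adjusted p = 0.00349). Csgalnact1, which starts chondroitin chains, fell by 0.67 (adjusted p = 0.0328), and the chondroitin sulphotransferase Chst7 fell by 0.60 (0.0140). B3galt6, which adds a galactose of the linker to the core protein, rose by 0.67 (adjusted p = 0.00814), and Chpf, a chondroitin polymerising factor, rose by 0.41 (0.0346). The Csgalnact1 call held in 1 of the 6 fits that left out an array, the one without control replicate 2. The Chst7 call was lost without YY1bKO replicate 1 or 2. Lower calls numbered 1 without YY1bKO replicate 1 or 2, and higher calls 1 without control replicate 1 or any YY1bKO array. B4galt1, a galactosyltransferase, was also called higher without control replicate 2 (0.36, adjusted p = 0.0455) or 3 (0.61, 0.0423). Among 10 integrin genes whose products grip these glycoproteins, 2 were lower, Itgb5 (-0.67, adjusted p = 0.0173) and Itgb1 (-0.41, adjusted p = 0.0191), with a list median of -0.01. These are 20% of the list against 8.09% of all genes, and the Itgb1 call was lost when probe sets were averaged (-0.24, adjusted p = 0.0585). No integrin was called without control replicate 1 or YY1bKO replicate 1 or 2, and 1 was called without control replicate 3 or YY1bKO replicate 3.

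**Figure D4:**
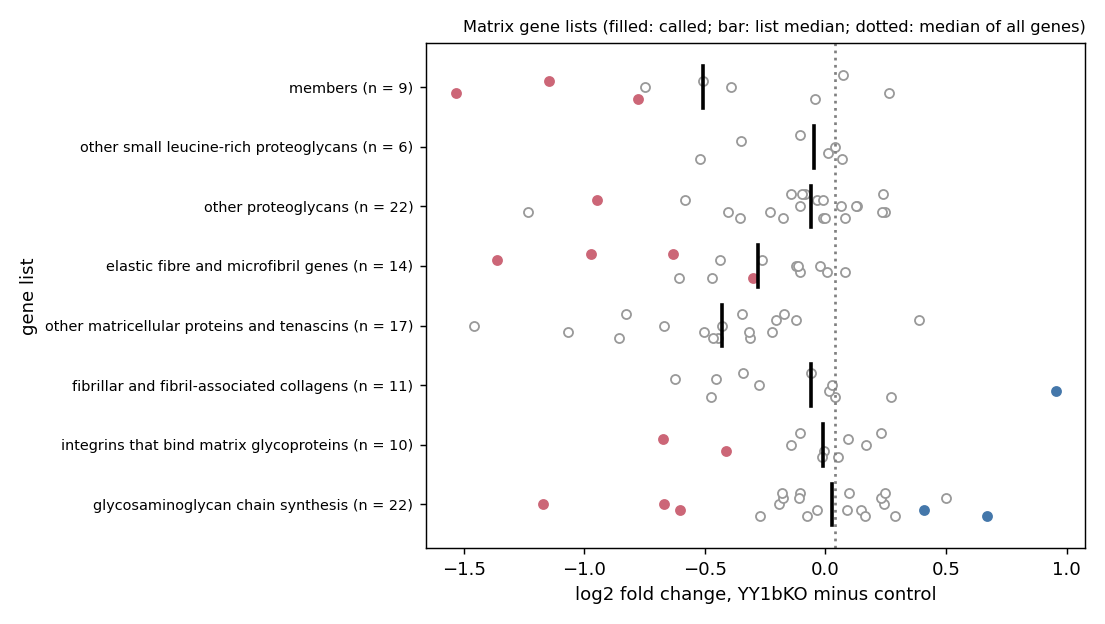
Each point is the log2 fold change, YY1bKO minus control, of a gene in 8 lists of matrix genes, filled where the adjusted p is under 0.05 (red lower, blue higher), with a black bar at the list median and a dotted line at the median of all genes, 0.04. The members, the elastic fibre genes, the integrins and the other proteoglycans have filled points on the lower side only. The collagen list has its single filled point on the higher side.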

How the data were processed

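Total RNA of brown adipose tissue from 3 control and 3 YY1bKO samples was labelled for Affymetrix arrays. The authors deposited linear intensities, from 4.91 to 21219, for 22690 probe sets. Per the submitters' processing notes the tool was RMA, for which the sources used here give no version. It equalises array distributions and pulls in fold changes of dim probe sets. Arrays give no counting depth, and the number of arrays limits precision.

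Intensities were turned to log2 with no pseudocount. After removing 64 control probe sets, 20380 of 22626 had 1 symbol, 691 had several and 1555 none. Each of 12393 genes was represented by its brightest probe set over all arrays, and a second fit covered all 22626 probe sets. Both used limma 3.58.1 in R 4.3.3 (lmFit, eBayes, group as sole term), two-sided with Benjamini-Hochberg adjustment, and calls were made at 0.05. Scripts were tested on simulated data. The labels do not tie replicates to separate mice, so the p-values cover the spread among these samples, which may be technical.

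The members and gene lists were chosen with earlier results of these data known. Named genes were all members, Yy1, Col1a1, Col1a2, Col3a1, and up to 4 called genes per list by smallest p. Other genes in the text, including Ucp1, the cluster neighbours and those near the threshold, were picked after their values were seen. Alternatives were a dim filter, the mean over probe sets, quantile normalization, median centring, a pseudocount of 16, array weights, eBayes with trend and robust options, a replicate block, a fold of at least 1.5, and leaving out each array. Doing so for list medians was chosen after seeing the data.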

Additional observations from a re-analysis of the deposited data

How the results depend on the processing

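Over all genes, 1267 were called higher and 1003 lower. With the replicate block these were 671 and 639, and with a fold of at least 1.5 added 469 and 562. Leaving out 1 array gave 547 to 1661 higher and 466 to 1439 lower. The 3 lower members became 1 with the replicate block, where Bgn (adjusted p = 0.0633) and Tnc (0.0534) were lost, and 1 to 4 when an array was left out. The labels give no shared litter, batch or day for a replicate number, and deviations of same-numbered arrays correlated at -0.246, 0.112 and 0.261 for replicates 1, 2 and 3, so the numbers were not taken as pairs, and not every array correlated best with its own number. With dim genes left out 2 members were called, since Tnc was not tested. With array weights Sparc was called (-0.52, adjusted p = 0.0200).

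Signs turned for uncalled genes. With array weights Ogn gave 0.0597 and Col3a1 -0.0775. Averaging a gene's probe sets gave 0.0127 for Col1a1 and -0.119 for Col3a1. Over the fits that left out 1 array, log2 fold changes ran from -0.334 to 0.237 for Ogn, from -0.0377 to 0.571 for Dcn, from -0.277 to 0.388 for Lum, from -0.307 to 0.202 for Col1a1 and from -0.258 to 0.253 for Col3a1. The cause was not tested in any of these.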
